A study of Mus musculus with 38 samples.

Results

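The Wnt ligands, the proteins that modify and export them, their Frizzled receptors and co-receptors, and their secreted antagonists were followed through RNA sequencing of mouse embryonic stem cells. The genes were chosen by symbol from the deposited table: every Wnt gene, every Frizzled (Fzd) gene, the secreted Frizzled-related genes Sfrp1 to Sfrp5, Dkk1 to Dkk4, and Frzb, Porcn, Wls, Lrp5, Lrp6, Ror1, Ror2 and Ryk. They came to 45 of 25965 genes, made up of 19 ligands, 2 genes of ligand secretion, 10 Frizzled receptors, 5 co-receptors and 9 secreted antagonists.

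All libraries came from 1 male embryonic stem cell line, E14, derived from 129/Ola mice and grown on gelatin without feeder cells. Cells were kept for 8 days in 2i/L with 1 µM of a MEK inhibitor (PD03259010 in the labels) and 3 µM of the GSK3 inhibitor CHIR99021 (n = 3), for 8 days in MEKi/L with the MEK inhibitor alone (n = 3), for 24 days in GSK3i/L with CHIR99021 alone (n = 2, replicates 2 and 3), for 8 days in GSK3i/L (n = 3), or for 8 days in serum with LIF, S/L (n = 3). The inhibitor media share a serum-free base, N2B27, and all media contain LIF. None of the libraries analysed had N2B27 and LIF with neither inhibitor, so against S/L the basal medium and the inhibitor change together and cannot be told apart.

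In canonical Wnt signalling, a ligand binds a Frizzled receptor and LRP5 or LRP6 at the cell surface, which stops the destruction complex, including the kinase GSK3, from marking β-catenin for degradation. β-Catenin then acts with TCF and LEF factors on target genes. A GSK3 inhibitor such as CHIR99021 stabilises β-catenin downstream of ligand and receptor, and in mouse embryonic stem cells it is used with a MEK inhibitor to maintain the naive state. PORCN attaches a lipid to Wnt proteins, WLS carries them to the cell surface, and ROR1, ROR2 and RYK receive Wnt signals that need not pass through β-catenin. Secreted Frizzled-related proteins bind Wnt ligands, whereas DKK1 and DKK2 bind LRP5 and LRP6.

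Levels are given in reads per 1000000 reads (RPM), which are not corrected for transcript length, so that values were compared between groups for 1 gene and not between genes. In 8-day GSK3i/L and S/L the deposited values share 1 distribution, and RPM there is on that shared scale. The depth of the libraries ran from 10550000 to 15760000 reads in 2i/L, MEKi/L and 24-day GSK3i/L, and from about 8050000 to 18400000 reads in 8-day GSK3i/L and S/L. All 10 embryonic stem cell markers examined, among them Pou5f1, Sox2 and Nanog, were at or over 1 RPM in every group. In these bulk samples, fewer expressing cells and less RNA per cell cannot be told apart. A gene was tested with limma if it reached 0.5 RPM in at least 3 libraries, and it is said to rise or fall where its Benjamini-Hochberg adjusted p over all 14980 genes tested was under 0.05. The series describes the RNA samples as biological replicates.

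Of the 45 members, 34 were tested. Wnt1 and Wnt2 had 0 reads in all 14 libraries, which allows up to 3 reads in a library, or 0.221 RPM as the mean of 2i/L, 0.230 RPM for MEKi/L, 0.246 RPM for 24-day GSK3i/L, 0.255 RPM for 8-day GSK3i/L and 0.329 RPM for S/L. Wnt9b, Wnt10b and Dkk4 never exceeded 3 reads. Wnt2b, Wnt3a, Wnt7a, Wnt8b, Wnt10a and Wnt16 had more than 3 reads in some library but did not pass the filter, and the most that any of them reached was 0.529 RPM, for Wnt2b in 2i/L. These floors cover counting error only. Wnt3a, a canonical ligand of the early embryo, stayed at or under 0.379 RPM throughout, and Wnt3 reached 2.25 RPM in 2i/L. All 10 Frizzled genes and all 5 co-receptors passed the filter.

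**Figure D1:**
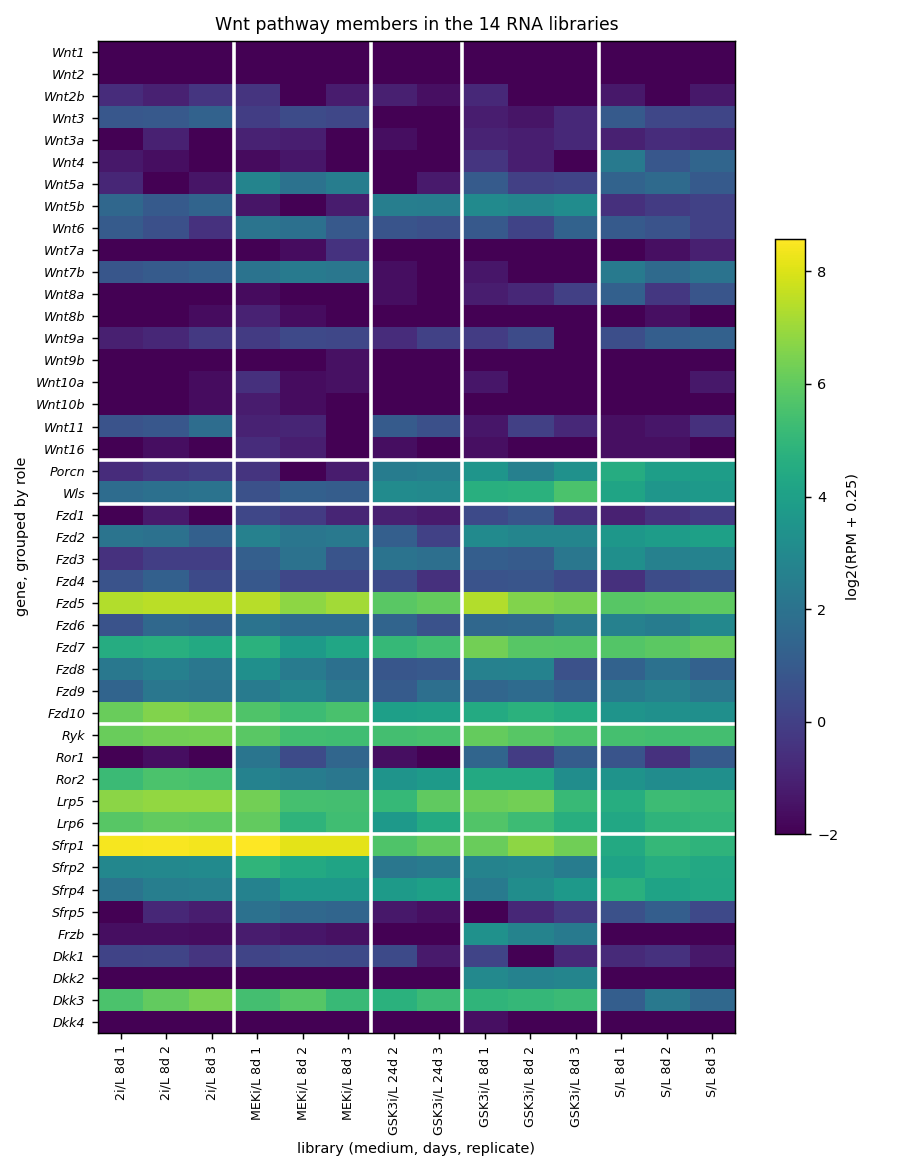
Level of each of the 45 members (rows, grouped by role) in each of the 14 libraries (columns, from 2i/L on the left to S/L on the right), as log2 of RPM plus 0.25. The rows of Wnt1 and Wnt2 stay at the lowest colour in all 14 libraries, Fzd5 and the Sfrp1 row are bright in 2i/L and MEKi/L, and Dkk2 and Frzb are bright in the 3 libraries of 8-day GSK3i/L.

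In 2i/L against S/L, the antagonists Sfrp1 and Dkk3, the receptors Fzd10 and Fzd5 and the co-receptors Ror2, Lrp5, Lrp6 and Ryk were higher in 2i/L, and the ligands Wnt11 and Wnt5b also rose. Lower in 2i/L were the ligand-processing genes Porcn and Wls, the ligands Wnt4, Wnt8a, Wnt5a, Wnt9a and Wnt7b, the receptors Fzd1, Fzd2, Fzd3, Fzd6 and Fzd7, the co-receptor Ror1, and the antagonists Sfrp2, Sfrp4 and Sfrp5. These were 10 of the 34 tested members called higher, against 39.1% of all tested genes, and 16 called lower, against 24.4% of all tested genes. As shares of the tested members they were 29.4% and 47.1%. The median log2 fold change was -0.44 over the 34 members and 0.28 over all tested genes. When each library was centred on its median gene, all tested genes split into 27.5% called higher and 32.0% called lower and the members into 10 and 17. The call of Wnt9a was lost without 2i/L replicate 1 (limma adjusted p = 0.0600), and that of Wnt7b without 2i/L replicate 1, S/L replicate 1 or S/L replicate 3 (adjusted p 0.0506 to 0.0820).

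In MEKi/L against S/L, Dkk3, Sfrp1, Fzd10 and Fzd5 rose, as they did in 2i/L, a comparison that shares the S/L libraries. Porcn and Wls fell, as did the ligands Wnt4, Wnt8a and Wnt5b, the receptors Fzd7, Fzd3, Fzd2 and Fzd6, the co-receptor Ror2 and the antagonist Sfrp4. The 4 members called higher stood against 26.1% of all tested genes and the 11 called lower against 14.7%. The shares of the tested members were 11.8% higher and 32.4% lower, with a median log2 fold change of 0.12 for the members and 0.17 for all tested genes. After median centring the split of all tested genes was 20.1% higher and 19.7% lower, and the members again gave 4 and 11. The call of Fzd6 was lost without any 1 of the 6 libraries compared (adjusted p 0.0505 to 0.123), that of Ror2 without MEKi/L replicate 2 or 3 or S/L replicate 1 or 3 (0.0519 to 0.0885), and that of Sfrp4 without MEKi/L replicate 1 or S/L replicate 1 (adjusted p 0.0858 to 0.104).

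In 8-day GSK3i/L against S/L, the antagonists Dkk2, Frzb, Dkk3 and Sfrp1, the ligand Wnt5b, the receptors Fzd10 and Fzd5 and the ligand carrier Wls were higher in GSK3i/L. The ligands Wnt7b, Wnt4, Wnt3, Wnt9a and Wnt8a, the receptors Fzd3, Fzd9, Fzd6 and Fzd2 and the antagonists Sfrp5, Sfrp2 and Sfrp4 were lower. That gave 8 members higher, beside 16.8% of all tested genes, and 12 lower, beside 14.4%. Of the tested members these were 23.5% and 35.3%, and the median log2 fold change was 0.33 for the members and 0.06 for all tested genes. The 8 include Dkk2 and Frzb, which passed the filter only through 8-day GSK3i/L, so their calls are no support for the count or share. The number that fell was 5 without S/L replicate 1, 7 without S/L replicate 2 and 6 without GSK3i/L replicate 1. The calls of Fzd2, Fzd6, Wnt8a and Wnt9a ended in 8 to 11 of the 14 fits that left out 1 library (limma adjusted p 0.0502 to 0.195), those of Fzd3 and Fzd9 in 3 and 4 (0.0568 to 0.0865), that of Sfrp5 without GSK3i/L replicate 1 or S/L replicate 2 (0.0643 to 0.0811), and that of Sfrp4 without S/L replicate 1 (adjusted p = 0.0509). Fitted on those 2 groups alone, Fzd5 had an adjusted p of 0.0507.

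In 2i/L against MEKi/L, which differ by CHIR99021 in the same base medium, Wnt5b, Wnt11, Ror2, Wls, Fzd10 and Ryk were higher in 2i/L. Wnt5a, Ror1, Sfrp5, Fzd1, Fzd3, Sfrp2 and Wnt7b were lower in 2i/L. The 6 members called higher stood beside 6.81% of all tested genes and the 7 called lower beside 6.11%, and they were 17.6% and 20.6% of the tested members. The median log2 fold change was -0.07 for the members and 0.07 for all tested genes. Under quantile normalization the members split into 7 higher and 5 lower, and all tested genes into 5.70% higher and 4.87% lower. Under median centring the members split into 5 higher and 7 lower, and all tested genes into 4.90% higher and 7.90% lower. The number that fell was 4 without MEKi/L replicate 2. The calls of Wnt7b and Wls ended without any 1 of the 2i/L libraries or either of 2 MEKi/L libraries (replicates 2 and 3 for Wnt7b, 1 and 3 for Wls, adjusted p 0.0531 to 0.126), those of Ryk, Fzd1 and Fzd3 without MEKi/L replicate 2 (0.0506 to 0.0573), of Ryk also without MEKi/L replicate 3, and of Fzd1 also without 2i/L replicate 3.

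In 2i/L against 8-day GSK3i/L, which differ by the MEK inhibitor in the same base medium, the ligands Wnt7b, Wnt3 and Wnt11, the antagonists Sfrp1 and Dkk3, the receptors Fzd10 and Fzd5 and the co-receptor Ror2 were higher in 2i/L. Dkk2, Frzb, Ror1, Porcn, Wls, Wnt5a, Wnt8a, Wnt5b, Fzd1, Fzd3, Fzd7 and Fzd2 were lower in 2i/L. These were 8 members called higher, beside 19.8% of all tested genes, and 12 called lower, beside 8.02%, and they made up 23.5% and 35.3% of the tested members. The median log2 fold change was -0.34 for the members and 0.18 for all tested genes. Dkk2 and Frzb, among the 12, passed the filter only through 8-day GSK3i/L, so their calls are no support for the count or share. Median centring moved the median of all tested genes by -0.31 and turned their split to 9.59% higher and 15.7% lower, while the members split into 6 and 13. The number that rose was 5 without 2i/L replicate 3. Dkk3 lost its call under quantile normalization and under median centring (limma adjusted p up to 0.118). Fzd5 lost its call under 6 of the 10 alternatives other than leaving out a library, these 2 among them (limma adjusted p up to 0.304). The calls of Fzd2 and Wnt11 were lost without 2i/L replicate 3 (adjusted p 0.0776 and 0.0786), that of Wnt8a without GSK3i/L replicate 3 (0.0562), that of Dkk3 without 2i/L replicate 2 or 3 or GSK3i/L replicate 2 (0.0668 to 0.119), and that of Fzd5 in 11 of 14 such fits (adjusted p 0.0505 to 0.150).

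In GSK3i/L, 24 days against 8 days, Dkk2, Frzb, Ror1, Wnt5a, Fzd2, Wnt8a, Fzd1, Wls, Lrp6, Fzd5 and Fzd10 were lower at 24 days. With limma, 11 members were called lower at 24 days, beside 13.2% of all tested genes, and 0 were called higher, beside 4.3%. At an unadjusted p under 0.05, 1 member, Wnt11, was higher and 15 were lower, and no other tool was run. The 11 made up 32.4% of the tested members, and the median log2 fold change was -0.70 for the members and -0.19 for all tested genes. Dkk2 and Frzb, among the 11, passed the filter only through 8-day GSK3i/L, so their calls are no support for the count or share. Under quantile normalization 6 members were lower, and all tested genes split into 4.59% higher and 7.42% lower. The number that fell was between 4 and 7 in 10 of the 14 fits that left out 1 library, those without either 24-day library, 8-day replicate 1 or 2, any 2i/L library, MEKi/L replicate 3 or S/L replicate 2 or 3. Fzd1, Fzd5, Fzd10, Lrp6 and Wnt8a lost the call in 10 or 11 of the 14 (limma adjusted p 0.0502 to 0.330), and Wnt5a lost it without 24-day replicate 2 (adjusted p = 0.0837).

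In 24-day GSK3i/L against S/L, where time differs as well as medium, Dkk3, Wnt5b, Wnt11, Sfrp1 and Fzd10 were higher in GSK3i/L. Wnt7b, Wnt4, Wnt5a, Wnt8a, Wnt3, Ror1, Sfrp5, Fzd2, Sfrp2 and Fzd6 were lower. The 5 members called higher stood beside 10.2% of all tested genes and the 10 called lower beside 14.9%, at 14.7% and 29.4% of the tested members. The median log2 fold change was -0.70 for the members and -0.12 for all tested genes, and quantile normalization turned the split of all tested genes to 13.4% higher and 12.3% lower with the members again at 5 and 10. The number that rose was 3 without 24-day replicate 2 and 2 without 24-day replicate 3. Sfrp1, Fzd6 and Sfrp5 lost the call without 24-day replicate 3 (adjusted p 0.0536 to 0.0673), Wnt11 without either 24-day library (0.0539 to 0.0934), and Fzd10 without either 24-day library or S/L replicate 2 or 3 (adjusted p 0.0572 to 0.121).

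**Figure D2:**
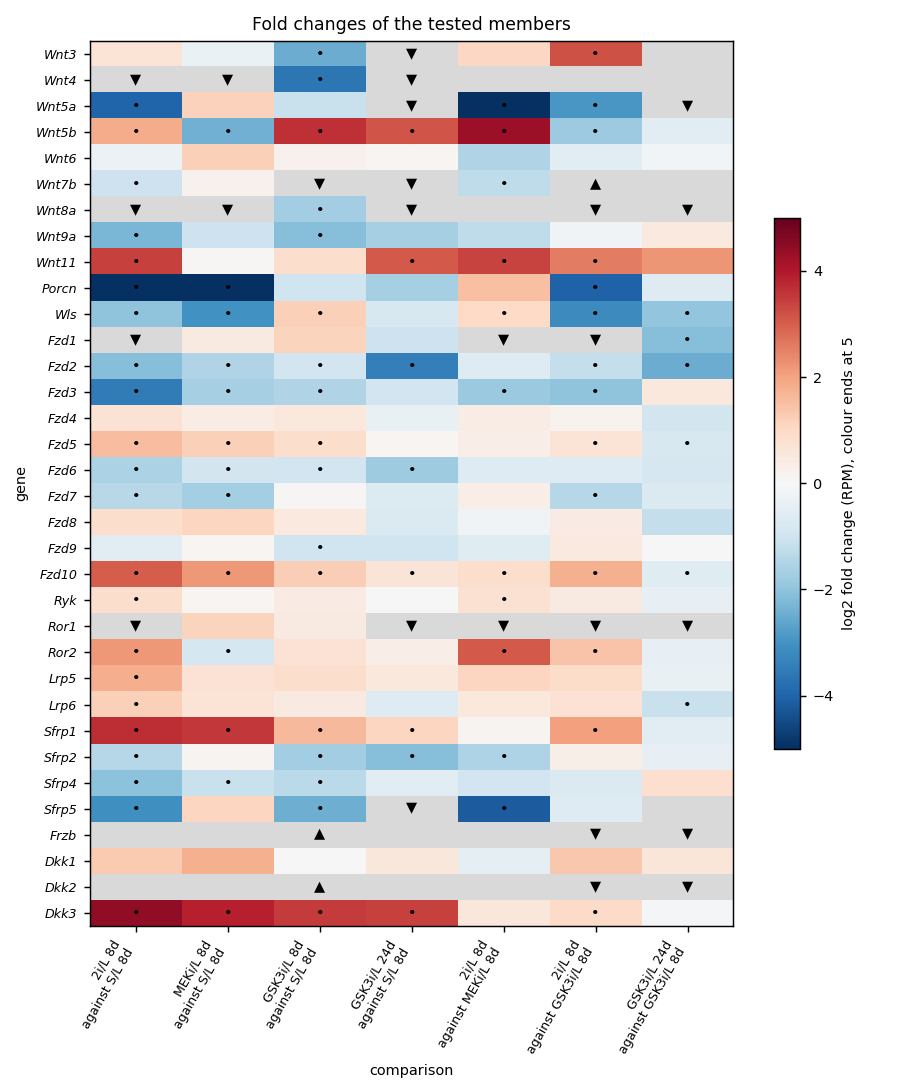
Log2 fold change (colour, red for higher in the first-named group and blue for lower, ending at 5) of the 34 tested members (rows) in the 7 comparisons (columns); a dot marks an adjusted p under 0.05. Grey cells have at most 3 reads in a group and show no fold, with a triangle for the direction of a call; Sfrp1, Dkk3 and Fzd10 are red with a mark in all 4 columns against S/L.

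The ligand Wnt5b was higher in all groups with CHIR99021 than in those without. It was at 2.67, 1.74 and 2.38 RPM in 2i/L, 0.127, 0 and 0.190 RPM in MEKi/L, 5.54 and 5.28 RPM in 24-day GSK3i/L, 7.98, 6.80 and 8.68 RPM in 8-day GSK3i/L, and 0.450, 0.647 and 0.794 RPM in S/L. Every library with CHIR99021 lay above every library without it. The log2 fold change was 4.26 ± 0.40 (SE) in 2i/L against MEKi/L (limma adjusted p = 1.5e-05), 3.66 ± 0.40 in 8-day GSK3i/L against S/L (1.9e-05) and 1.86 ± 0.40 in 2i/L against S/L (adjusted p = 0.0011). Wnt5b overlaps Fbxl14 on the opposite strand, and whether reads were counted by strand is not given in the sources used here, so its reads and those of Fbxl14 cannot be told apart.

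Wnt5a, a ligand best known for signalling without β-catenin, was highest in MEKi/L. It was at 0.305, 0 and 0.132 RPM in 2i/L, 6.66, 3.74 and 5.40 RPM in MEKi/L, 0 and 0.176 RPM in 24-day GSK3i/L, 1.80, 0.746 and 0.876 RPM in 8-day GSK3i/L, and 2.36, 2.87 and 1.77 RPM in S/L. The MEKi/L libraries were all above those of every other group, and those of 8-day GSK3i/L overlapped S/L. Wnt5a was lower in 2i/L than in MEKi/L, with a log2 fold change of -5.17 ± 0.56 (SE, limma adjusted p = 4.5e-05), and lower in 2i/L than in S/L, at -4.01 ± 0.56 (adjusted p = 4.2e-05). Its reads at 24 days in GSK3i/L came to 2 over both libraries, so that no fold is given for that group.

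The other tested ligands stayed under 5 RPM, and each had its own pattern. Wnt7b averaged 1.82 ± 0.30 RPM in 2i/L, 4.34 ± 0.52 RPM in MEKi/L, 0.038 ± 0.054 RPM in 24-day GSK3i/L, 0.047 ± 0.081 RPM in 8-day GSK3i/L and 3.80 ± 0.92 RPM in S/L (SD, n = 2 at 24 days and 3 elsewhere), so that it was at or under 2 reads in every library with CHIR99021 alone. Wnt11, which has roles in convergent extension, averaged 2.04 ± 0.99 RPM in 2i/L, 0.181 ± 0.157 RPM in MEKi/L, 1.53 ± 0.42 RPM in 24-day GSK3i/L, 0.404 ± 0.311 RPM in 8-day GSK3i/L and 0.223 ± 0.185 RPM in S/L. Its log2 fold change was 3.41 ± 0.72 in 2i/L against S/L (SE, limma adjusted p = 0.0010) and 3.37 ± 0.72 in 2i/L against MEKi/L (adjusted p = 0.0076). The 2i/L libraries of Wnt11, at 1.37, 1.58 and 3.17 RPM, were all above those of MEKi/L, 8-day GSK3i/L and S/L.

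Wnt4 and Wnt8a had their highest mean levels in S/L. Wnt4 averaged 2.92 ± 1.61 RPM in S/L, and its highest value in any other library was 0.534 RPM, in 8-day GSK3i/L. With 0 reads at 24 days in GSK3i/L, it was at least 11.8-fold lower there than in S/L, taking the floor of 3 reads in each library. Wnt8a had 0 reads in 2i/L and averaged 1.38 ± 0.78 RPM in S/L, which is at least 6.2-fold lower in 2i/L. Wnt3, which acts in the primitive streak of the embryo, averaged 1.84 ± 0.36 RPM in 2i/L, 0.908 ± 0.194 RPM in MEKi/L, 0.217 ± 0.099 RPM in 8-day GSK3i/L and 1.18 ± 0.47 RPM in S/L, with 0 reads at 24 days in GSK3i/L, at least 4.7-fold lower there than in S/L. Its log2 fold change in 2i/L against 8-day GSK3i/L was 3.16 ± 0.44 (SE, limma adjusted p = 0.00016). Wnt9a was between 0 and 1.08 RPM in the inhibitor media and between 1.19 and 2.18 RPM in S/L, and Wnt6, between 0.463 and 4.00 RPM, passed the test in no comparison.

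RefSeq promoter windows on GRCm38.p6, from 250 bases before to 50 bases after a transcription start, were at hand for 30 of the 45 members, 33 windows in all. They were searched on both strands for CTTTGAT and CTTTGAA, which share the CTTTGA core that TCF and LEF factors are known to bind. Of all 32851 windows, 3.73% held CTTTGAT, 5.14% held CTTTGAA and 8.65% held either. Of the 33 windows of members, 3 held either, a share near that of all windows: 1 each of Wnt5b, Wnt11 and Dkk1. The 3 are shown because they are the members' only matches. Wnt5b and Wnt11 are the ligands that were higher in 2i/L than in MEKi/L, and Dkk1 passed in no comparison. A part of the matches in these differences was not tested. Capitals mark the match, which in Wnt11 lies on the opposite strand. Wnt5b has 3 windows and Wnt11 has 2, and values per gene do not say which start was used. The windows are chr6:119449337-119449636 (minus strand) for Wnt5b, chr7:98834862-98835161 (plus strand) for Wnt11 and chr19:30549447-30549746 (minus strand) for Dkk1.
Wnt5b: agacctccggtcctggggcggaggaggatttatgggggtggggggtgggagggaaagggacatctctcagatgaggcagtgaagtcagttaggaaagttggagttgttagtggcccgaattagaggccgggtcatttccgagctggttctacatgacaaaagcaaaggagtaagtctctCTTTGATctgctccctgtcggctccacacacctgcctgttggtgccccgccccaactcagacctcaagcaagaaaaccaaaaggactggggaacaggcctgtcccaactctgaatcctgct
Wnt11: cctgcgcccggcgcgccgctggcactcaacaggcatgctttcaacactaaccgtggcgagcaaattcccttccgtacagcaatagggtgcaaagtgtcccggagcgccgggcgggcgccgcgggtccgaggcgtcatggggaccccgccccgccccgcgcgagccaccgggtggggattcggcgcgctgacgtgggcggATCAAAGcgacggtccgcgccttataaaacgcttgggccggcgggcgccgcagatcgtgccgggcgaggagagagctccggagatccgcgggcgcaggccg
Dkk1: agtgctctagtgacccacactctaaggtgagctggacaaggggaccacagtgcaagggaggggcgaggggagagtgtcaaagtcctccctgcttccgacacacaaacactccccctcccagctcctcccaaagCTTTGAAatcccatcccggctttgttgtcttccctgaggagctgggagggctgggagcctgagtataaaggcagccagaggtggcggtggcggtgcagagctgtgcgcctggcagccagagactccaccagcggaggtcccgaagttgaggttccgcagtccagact
A match is a string of letters and not a measured binding site.

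Both secretion genes were lower in 2i/L and MEKi/L than in S/L. Porcn was at 0.381, 0.553 and 0.661 RPM in 2i/L, 0.508, 0 and 0.190 RPM in MEKi/L, 5.24 and 5.72 RPM in 24-day GSK3i/L, 11.3, 5.84 and 9.84 RPM in 8-day GSK3i/L, and 23.2, 15.1 and 14.5 RPM in S/L. All 6 libraries with the MEK inhibitor were under 1 RPM and all others were over 5 RPM. For Porcn the log2 fold change was -5.05 ± 0.56 (SE) in 2i/L against S/L (limma adjusted p = 5.9e-06), -6.54 ± 0.56 in MEKi/L against S/L (1.5e-06) and -4.06 ± 0.56 in 2i/L against 8-day GSK3i/L (adjusted p = 0.00015).

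Wls was at 3.05, 3.48 and 3.84 RPM in 2i/L, 1.27, 2.09 and 1.90 RPM in MEKi/L, 8.43 and 7.57 RPM in 24-day GSK3i/L, 24.9, 26.7 and 47.5 RPM in 8-day GSK3i/L, and 18, 11.6 and 13.1 RPM in S/L. The groups did not overlap, and 8-day GSK3i/L was highest. Its log2 fold change was 1.18 ± 0.28 (SE) in 8-day GSK3i/L against S/L (limma adjusted p = 0.0067), -3.03 ± 0.28 in MEKi/L against S/L (2.7e-06), -3.20 ± 0.28 in 2i/L against 8-day GSK3i/L (4.4e-06) and -1.98 ± 0.31 at 24 against 8 days in GSK3i/L (adjusted p = 0.0018).

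**Figure D3:**
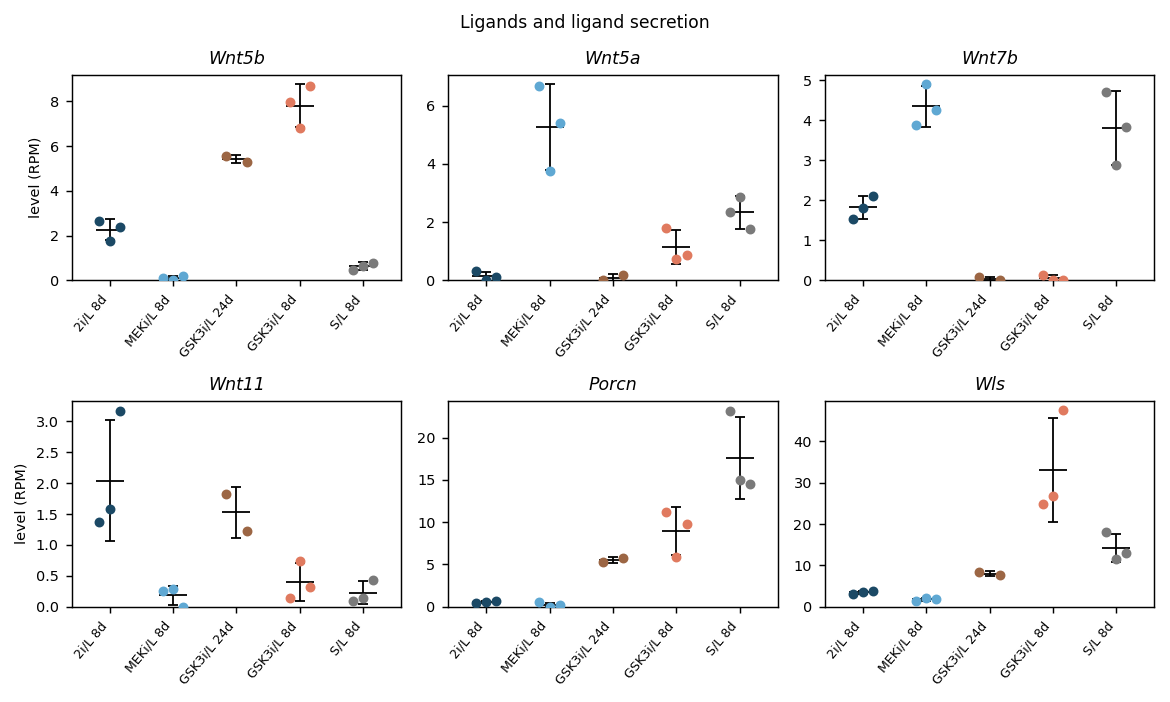
Level in RPM (linear axes from 0, each gene on its own scale) of 4 ligands and of Porcn and Wls in each library, with points for libraries and black bars for the group mean and SD. Wnt5b is raised in the 3 groups with CHIR99021, Wnt5a is highest in MEKi/L, and Porcn is under 1 RPM in 2i/L and MEKi/L.

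Among the Frizzled receptors, Fzd10 and Fzd5 were highest in 2i/L, and Fzd2, Fzd3, Fzd6 and Fzd7 were low there. Fzd10 was at 70.6, 93.9 and 82.3 RPM in 2i/L, 50.6, 37.8 and 46.8 RPM in MEKi/L, 15.2 and 16.1 RPM in 24-day GSK3i/L, 21.7, 26.6 and 22.7 RPM in 8-day GSK3i/L, and 11, 9.61 and 9.46 RPM in S/L. The 5 groups did not overlap for Fzd10. Its log2 fold change was 3.03 ± 0.17 (SE) in 2i/L against S/L (limma adjusted p = 1.3e-08), 2.16 ± 0.17 in MEKi/L against S/L (5.8e-07), 1.24 ± 0.17 in 8-day GSK3i/L against S/L (0.00011) and 0.87 ± 0.17 in 2i/L against MEKi/L (adjusted p = 0.0036).

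Fzd5 was at 165, 178 and 178 RPM in 2i/L, 171, 109 and 138 RPM in MEKi/L, 58.3 and 68.1 RPM in 24-day GSK3i/L, 164, 94.0 and 84.9 RPM in 8-day GSK3i/L, and 56.0, 59.6 and 62.3 RPM in S/L. The 8-day inhibitor libraries were all above S/L, and those of 24-day GSK3i/L overlapped it. For Fzd5 the log2 fold change was 1.55 ± 0.23 (SE) in 2i/L against S/L (limma adjusted p = 6.5e-05) and 1.21 ± 0.23 in MEKi/L against S/L (adjusted p = 0.00091).

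Fzd7, a receptor known for its part in keeping stem cells undifferentiated, was at 23.3, 25.5 and 21.4 RPM in 2i/L, 26.7, 13.2 and 18.7 RPM in MEKi/L, 33.8 and 41.4 RPM in 24-day GSK3i/L, 78.9, 56.6 and 54.8 RPM in 8-day GSK3i/L, and 52.7, 59.5 and 71.1 RPM in S/L. All libraries with the MEK inhibitor lay under all those without it. For Fzd7 the log2 fold change was -1.38 ± 0.23 (SE) in 2i/L against S/L (limma adjusted p = 0.00021), -1.69 ± 0.23 in MEKi/L against S/L (7.8e-05) and -1.42 ± 0.23 in 2i/L against 8-day GSK3i/L (adjusted p = 0.00062).

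Fzd2 was at 3.89, 3.64 and 2.12 RPM in 2i/L, 5.97, 4.17 and 4.64 RPM in MEKi/L, 2.05 and 0.793 RPM in 24-day GSK3i/L, 8.06, 6.80 and 6.70 RPM in 8-day GSK3i/L, and 11.7, 14.2 and 15.6 RPM in S/L. Every inhibitor library was below S/L for Fzd2. The log2 fold change was -2.15 ± 0.33 (SE) in 2i/L against S/L (limma adjusted p = 0.00010), -3.43 ± 0.37 in 24-day GSK3i/L against S/L (2.1e-05) and -2.49 ± 0.37 at 24 against 8 days in GSK3i/L (adjusted p = 0.0013, and 0.0523 when those 2 groups alone were fitted).

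Fzd3, which acts in axon guidance and tissue polarity, was at 0.457, 0.711 and 0.727 RPM in 2i/L, 2.03, 3.74 and 1.42 RPM in MEKi/L, 3.80 and 3.35 RPM in 24-day GSK3i/L, 1.96, 1.82 and 4.37 RPM in 8-day GSK3i/L, and 9.37, 5.93 and 6.16 RPM in S/L. S/L was above every other library and 2i/L below every other. For Fzd3 the log2 fold change in 2i/L against S/L was -3.50 ± 0.41 (SE, limma adjusted p = 9.9e-06).

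Fzd6 was at 1.37, 2.77 and 2.31 RPM in 2i/L, 3.81, 2.95 and 3.03 RPM in MEKi/L, 2.43 and 1.32 RPM in 24-day GSK3i/L, 2.64, 2.77 and 4.50 RPM in 8-day GSK3i/L, and 6.08, 5.21 and 7.35 RPM in S/L. All S/L libraries were above the others for Fzd6, with a log2 fold change of -1.58 ± 0.33 in 2i/L against S/L (SE, limma adjusted p = 0.0011). Fzd9 was at 2.44, 4.35 and 3.90 RPM in 2i/L, 5.08, 6.76 and 4.36 RPM in MEKi/L, 1.82 and 3.43 RPM in 24-day GSK3i/L, 2.60, 3.00 and 1.96 RPM in 8-day GSK3i/L, and 4.85, 5.93 and 4.36 RPM in S/L, and 8-day GSK3i/L did not overlap S/L. Fzd8, between 1.30 and 9.39 RPM, and Fzd4, between 0.440 and 2.13 RPM, passed in no comparison. Fzd1 stayed at or under 1.41 RPM and had 2 reads over the 3 libraries of 2i/L.

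Ror2, a receptor tyrosine kinase that binds WNT5A, was high in 2i/L. It was at 36.4, 47.7 and 44.2 RPM in 2i/L, 6.22, 5.11 and 4.26 RPM in MEKi/L, 10.7 and 13.1 RPM in 24-day GSK3i/L, 21.0, 21.3 and 8.82 RPM in 8-day GSK3i/L, and 10.6, 8.61 and 9.29 RPM in S/L. The 2i/L libraries were above all others and the MEKi/L libraries below all others. Its log2 fold change was 3.05 ± 0.29 (SE) in 2i/L against MEKi/L (limma adjusted p = 1.9e-05), 2.16 ± 0.29 in 2i/L against S/L (3.2e-05) and 1.43 ± 0.29 in 2i/L against 8-day GSK3i/L (adjusted p = 0.0028).

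Its relative Ror1 had the opposite order between 2i/L and MEKi/L. Ror1 was at 0, 0.079 and 0 RPM in 2i/L, 4.12, 1.08 and 2.56 RPM in MEKi/L, 0.076 and 0 RPM in 24-day GSK3i/L, 2.48, 0.660 and 1.84 RPM in 8-day GSK3i/L, and 1.41, 0.467 and 1.77 RPM in S/L. With 1 read in all of 2i/L and 1 in all of 24-day GSK3i/L, no fold is given for either. Ror1 overlaps Gm12701 on the same strand, and their reads may not have been told apart.

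The canonical co-receptors Lrp5 and Lrp6 and the receptor kinase-like Ryk rose in 2i/L against S/L. Lrp5 was at 105, 114 and 115 RPM in 2i/L, 80.3, 43.7 and 42.8 RPM in MEKi/L, 33.4 and 62.5 RPM in 24-day GSK3i/L, 73.4, 80.3 and 35.0 RPM in 8-day GSK3i/L, and 24.0, 37.7 and 36.1 RPM in S/L. Lrp6 was at 56.0, 65.3 and 60.8 RPM in 2i/L, 64.3, 29.1 and 40.5 RPM in MEKi/L, 12.9 and 21.9 RPM in 24-day GSK3i/L, 52.0, 37.3 and 24.7 RPM in 8-day GSK3i/L, and 20.2, 29.0 and 31.1 RPM in S/L. For both genes 2i/L lay above S/L without overlap, and the MEKi/L and 8-day GSK3i/L libraries were spread widely. Ryk was at 71.4, 80.1 and 83.0 RPM in 2i/L, 58.5, 40.7 and 40.0 RPM in MEKi/L, 41.9 and 44.5 RPM in 24-day GSK3i/L, 66.8, 57.0 and 48.0 RPM in 8-day GSK3i/L, and 43.1, 41.2 and 42.3 RPM in S/L. The log2 fold change in 2i/L against S/L was 1.80 ± 0.33 (SE) for Lrp5 (limma adjusted p = 0.00042), 1.20 ± 0.31 for Lrp6 (0.0044) and 0.89 ± 0.17 for Ryk (adjusted p = 0.00058).

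The balance of long and short transcripts moved with these co-receptors. It was measured as the mean log2 level of 37 genes with long transcripts minus that of 40 genes with short ones, and it averaged 0.13 ± 0.08 in 2i/L, -1.16 ± 1.35 in MEKi/L, -3.52 ± 0.40 in 24-day GSK3i/L, -1.55 ± 1.55 in 8-day GSK3i/L and -2.82 ± 0.23 in S/L (SD, n = 2 at 24 days and 3 elsewhere). Replicate 1 of MEKi/L (0.38) and of 8-day GSK3i/L (0.13) stood with 2i/L, and these were also the libraries with the most Lrp6 and Ryk in their groups. With this score as a covariate, the calls in 2i/L against S/L were lost for Lrp6 (limma adjusted p = 0.96), Ryk (0.12), Lrp5 (0.11), Wnt5b (0.061), Sfrp4 (0.068), Fzd6 (0.055), Wnt7b (0.11) and Sfrp5 (adjusted p = 0.19). All short genes called in any comparison are genes of the respiratory chain or ATP synthase, named Atp5, Cox, Nduf or Uqcr. The score therefore cannot tell transcript length from a shift of those genes. The score and the medium also largely coincide for 2i/L and S/L, so their parts in these differences cannot be told apart.

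**Figure D4:**
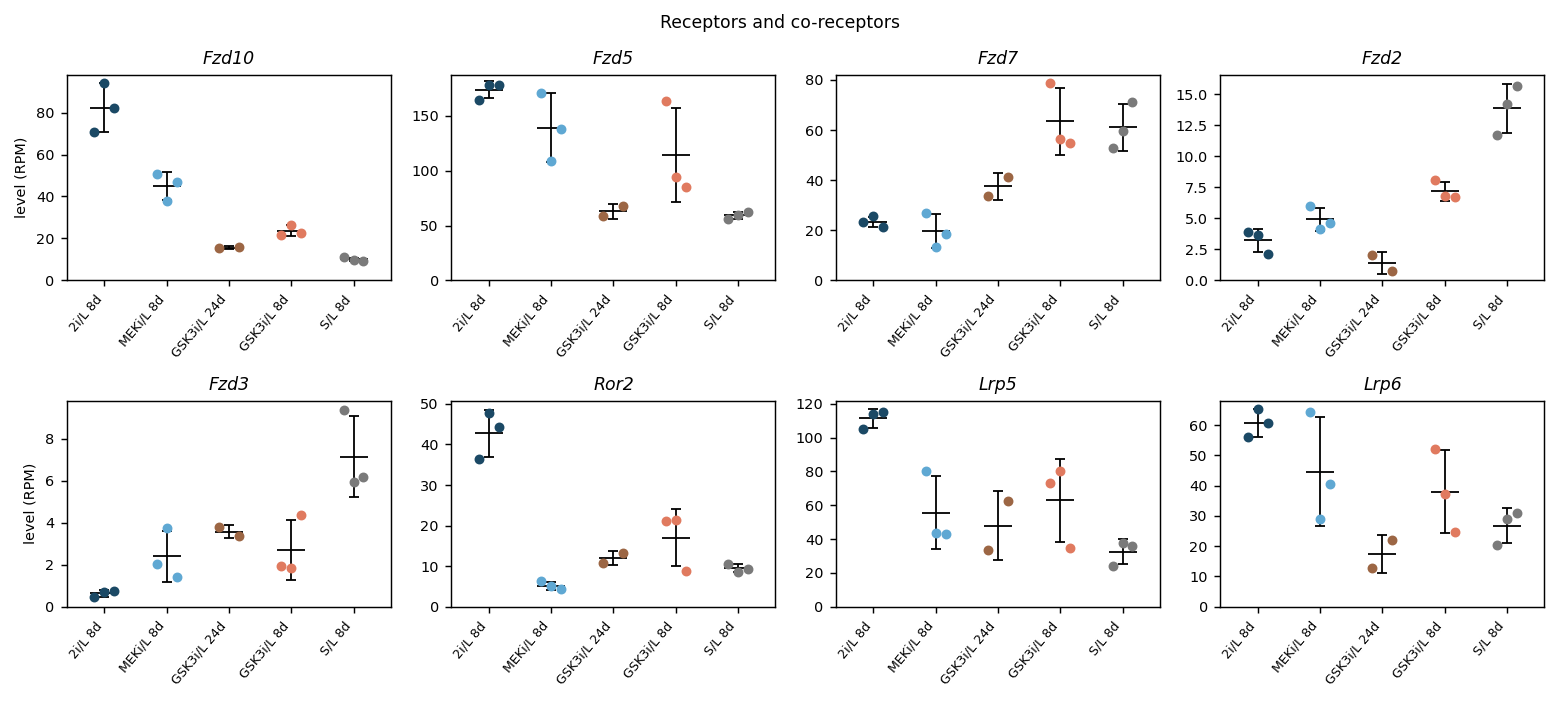
Level in RPM (linear axes from 0, each gene on its own scale) of 5 Frizzled receptors and 3 co-receptors in each library, with points for libraries and black bars for the group mean and SD. Fzd10 and Ror2 are highest in 2i/L, Fzd2 and Fzd3 are highest in S/L, and Lrp5 and Lrp6 spread widely within MEKi/L and 8-day GSK3i/L.

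Sfrp1, the antagonist that rose in every comparison against S/L together with Dkk3, was highest with the MEK inhibitor. Sfrp1 was at 344, 358 and 334 RPM in 2i/L, 380.4, 278 and 283 RPM in MEKi/L, 50.6 and 65.6 RPM in 24-day GSK3i/L, 70.3, 110.1 and 77.3 RPM in 8-day GSK3i/L, and 21.1, 32.5 and 28.8 RPM in S/L. The MEK inhibitor libraries stood above all GSK3i/L libraries, which in turn stood above all of S/L. Its log2 fold change was 3.67 ± 0.21 (SE) in 2i/L against S/L (limma adjusted p = 2.2e-08), 3.52 ± 0.21 in MEKi/L against S/L (9.5e-08), 1.64 ± 0.21 in 8-day GSK3i/L against S/L (8.7e-05) and 2.03 ± 0.21 in 2i/L against 8-day GSK3i/L (adjusted p = 1.7e-05).

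Dkk3, a divergent Dickkopf protein that is not an established LRP5 or LRP6 ligand, was low in serum alone. It was at 47.6, 64.9 and 83.6 RPM in 2i/L, 42.9, 54.6 and 34.2 RPM in MEKi/L, 26.7 and 36.5 RPM in 24-day GSK3i/L, 30.1, 32.8 and 36.8 RPM in 8-day GSK3i/L, and 1.98, 4.64 and 2.76 RPM in S/L. Every serum-free library was above every S/L library. The log2 fold change against S/L was 4.44 ± 0.29 (SE) in 2i/L (limma adjusted p = 6.9e-08), 3.88 ± 0.29 in MEKi/L (5.7e-07), 3.41 ± 0.33 in 24-day GSK3i/L (8.6e-06) and 3.50 ± 0.29 in 8-day GSK3i/L (adjusted p = 3.0e-06).

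Sfrp2 followed the GSK3 inhibitor. It was at 7.24, 7.43 and 8.13 RPM in 2i/L, 29.6, 21.2 and 17.9 RPM in MEKi/L, 4.33 and 5.02 RPM in 24-day GSK3i/L, 6.44, 6.94 and 5.16 RPM in 8-day GSK3i/L, and 17.5, 23.8 and 20.5 RPM in S/L. All libraries with CHIR99021 were under 9 RPM and all without it over 17 RPM. The log2 fold change of Sfrp2 was -1.56 ± 0.21 (SE) in 2i/L against MEKi/L (limma adjusted p = 0.00031), -1.74 ± 0.21 in 8-day GSK3i/L against S/L (5.4e-05) and -1.43 ± 0.21 in 2i/L against S/L (adjusted p = 7.3e-05).

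Sfrp5 was also low in the groups with CHIR99021, with averages of 0.172 ± 0.160 RPM in 2i/L, 2.94 ± 0.60 RPM in MEKi/L, 0.120 ± 0.045 RPM in 24-day GSK3i/L, 0.307 ± 0.301 RPM in 8-day GSK3i/L and 1.43 ± 0.51 RPM in S/L (SD, n = 2 at 24 days and 3 elsewhere). Its log2 fold change in 2i/L against MEKi/L was -4.16 ± 0.69 (SE, limma adjusted p = 0.0016). Sfrp4 was at 3.89, 5.53 and 5.82 RPM in 2i/L, 6.16, 12.2 and 12.0 RPM in MEKi/L, 13.3 and 15.7 RPM in 24-day GSK3i/L, 4.78, 8.84 and 12.9 RPM in 8-day GSK3i/L, and 26.0, 17.5 and 19.7 RPM in S/L. S/L was above every other library for Sfrp4, with a log2 fold change of -2.06 ± 0.35 in 2i/L against S/L (SE, limma adjusted p = 0.00020). Dkk1, a well-known target and inhibitor of canonical signalling, was between 0 and 1.08 RPM and passed in no comparison.

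Dkk2 and Frzb were detected above the floor in 8-day GSK3i/L alone. Dkk2, a DKK1 relative, was at 7.68, 6.27 and 6.81 RPM in 8-day GSK3i/L and had 0 reads in the other 11 libraries. It was at least 31.2-fold lower in 2i/L than in 8-day GSK3i/L, at least 28.1-fold lower at 24 than at 8 days in GSK3i/L, and at least 21.0-fold higher in 8-day GSK3i/L than in S/L. Frzb, a secreted Frizzled-related protein first known from cartilage, was at 10.0, 6.41 and 4.76 RPM in 8-day GSK3i/L, at most 0.190 RPM in any 2i/L or MEKi/L library, and had 0 reads in 24-day GSK3i/L and in S/L. It was at least 28.6-fold lower at 24 than at 8 days in GSK3i/L and at least 21.4-fold higher in 8-day GSK3i/L than in S/L. Dkk2 and Frzb passed the filter on low values only through the 3 libraries of 8-day GSK3i/L, so a difference from that group was built into their being tested. They are counted among the called members in the 3 comparisons with 8-day GSK3i/L, their levels are given as a description, and no p is given for them.

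Markers of mesenchymal cells moved with Dkk2 and Frzb. The summed level of 16 such genes was 28.9 to 32.1 RPM in 2i/L, 15.3 to 30.8 RPM in MEKi/L, 14.4 to 14.7 RPM in 24-day GSK3i/L, 151 to 344 RPM in 8-day GSK3i/L and 24.3 to 25.4 RPM in S/L. Of the 15 tested, 13 rose in 8-day GSK3i/L against S/L, among them Col3a1 and Fbn2, or 86.7% beside 16.8% of all tested genes. At 24 against 8 days 13 fell, or 86.7% beside 13.2%. Of these markers, Cdh11, Col6a1, Lum and Prrx1 passed the filter only through 8-day GSK3i/L, so their calls are no support for the count. Marker genes with 0 reads in a whole group were Col6a2, Dcn and Lum in 2i/L, Prrx1, Postn, Dcn and Lum in MEKi/L, Col1a2, Col3a1, Col6a1, Dcn, Lum, Postn and Prrx1 in 24-day GSK3i/L, and Lum, Postn and Prrx1 in S/L. By library in 8-day GSK3i/L, the sum was 344, 227 and 151 RPM for replicates 1, 2 and 3. Other marker lists also held such genes. The neural marker Zic1 averaged 15.5 RPM in 8-day GSK3i/L, 0.030 RPM in S/L and 0.208 RPM in 24-day GSK3i/L. Of 7 neural markers tested, 1 rose and 4 fell against S/L, or 14.3% and 57.1% beside 16.8% and 14.4%. The primitive streak marker Evx1, which passed the filter only through 8-day GSK3i/L, averaged 1.00 RPM there and had 0 reads at 24 days. Of 4 streak markers tested, all 4 rose in 8-day GSK3i/L against S/L, or 100% beside 16.8%. At 24 against 8 days 1, Evx1, fell, or 25% beside 13.2%, and T, Gsc and Eomes did not pass. T averaged 12.3 RPM in 8-day and 11.9 RPM in 24-day GSK3i/L. The calls of Evx1 are no support for these counts. The part of any of these markers in the Dkk2 and Frzb result was not tested. The promoter windows of the pair are given because the genes moved together: chr3:132085042-132085341 (plus strand) for Dkk2, with 11 CpG dinucleotides, and chr2:80447347-80447646 (minus strand) for Frzb, with 20, beside a median of 7 over all windows. The 33 windows of members held 4 to 58, and 30 of them were over that median, so this is not particular to the pair. Neither window of the pair held CTTTGAT or CTTTGAA, so no letters are in capitals.
Dkk2: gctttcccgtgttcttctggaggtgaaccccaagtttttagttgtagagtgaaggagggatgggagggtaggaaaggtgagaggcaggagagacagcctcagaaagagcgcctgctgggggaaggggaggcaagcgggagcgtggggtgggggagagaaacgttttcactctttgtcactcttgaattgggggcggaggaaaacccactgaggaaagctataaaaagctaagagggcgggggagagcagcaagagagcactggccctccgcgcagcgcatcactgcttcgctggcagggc
Frzb: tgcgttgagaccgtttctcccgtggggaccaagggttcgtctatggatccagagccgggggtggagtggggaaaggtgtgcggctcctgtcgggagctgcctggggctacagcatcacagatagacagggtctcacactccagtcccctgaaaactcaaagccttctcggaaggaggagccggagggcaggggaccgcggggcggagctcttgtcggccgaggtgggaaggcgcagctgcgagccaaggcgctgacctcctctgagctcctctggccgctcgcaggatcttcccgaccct
The absence of these letters applies to the 300 bases shown and does not bear on other sites of either gene.

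**Figure D5:**
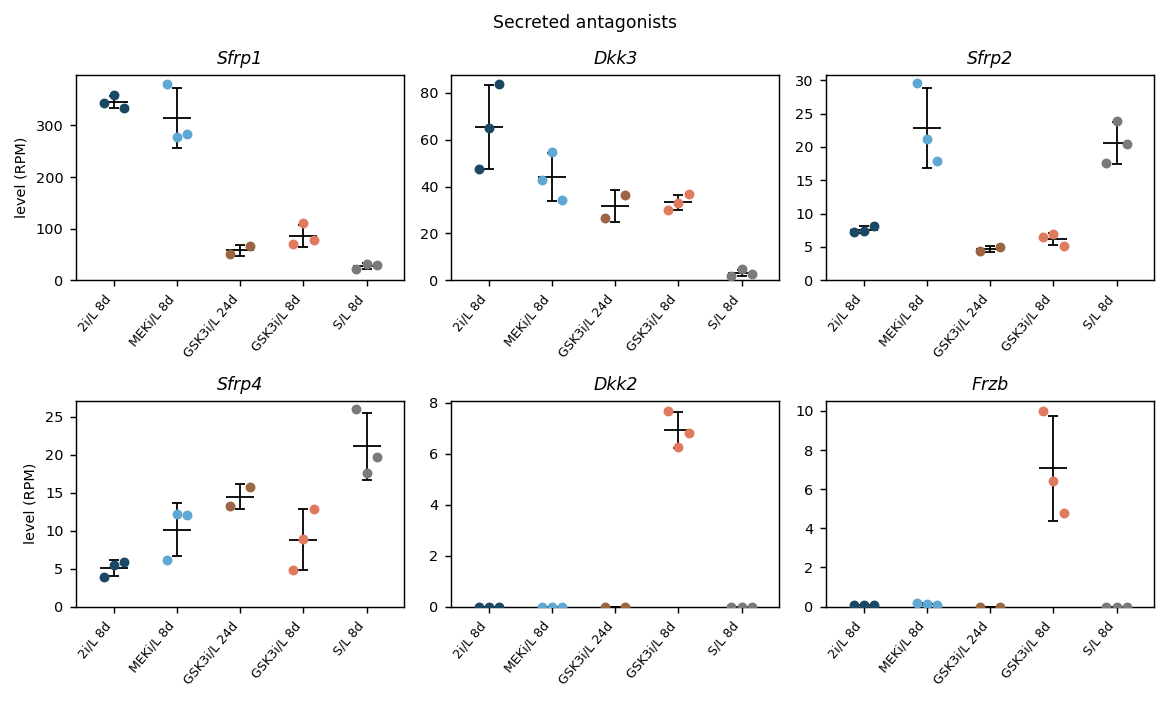
Level in RPM (linear axes from 0, each gene on its own scale) of 6 secreted antagonists in each library, with points for libraries and black bars for the group mean and SD. Dkk3 is low in S/L alone, Sfrp2 is low in the 3 groups with CHIR99021, and Dkk2 and Frzb stand above the floor in 8-day GSK3i/L alone.

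Targets of canonical signalling gave a readout of the pathway in the same libraries. Axin2, a feedback inhibitor and a widely used target, averaged 67.0 ± 9.7 RPM in 2i/L, 4.87 ± 1.35 RPM in MEKi/L, 23.9 ± 2.4 RPM in 24-day GSK3i/L, 49.1 ± 11.3 RPM in 8-day GSK3i/L and 5.32 ± 0.99 RPM in S/L (SD, n = 2 at 24 days and 3 elsewhere). Its log2 fold change was 3.81 ± 0.24 in 2i/L against MEKi/L (SE, limma adjusted p = 7.2e-07) and -1.02 ± 0.27 at 24 against 8 days in GSK3i/L (adjusted p = 0.025). Sp5, a transcription factor induced by Wnt, had a log2 fold change of 7.41 ± 0.54 in 2i/L against MEKi/L (limma adjusted p = 1.8e-06) and -4.50 ± 0.54 in MEKi/L against S/L (adjusted p = 2.5e-05). Lef1, itself a target and a partner of β-catenin, went the other way in 2i/L. It was at 1.09 ± 0.20 RPM in 2i/L, 3.13 ± 1.76 RPM in MEKi/L and 14 ± 3.1 RPM in S/L. Its log2 fold change was -3.68 ± 0.33 in 2i/L against S/L (limma adjusted p = 1.0e-06). Lef1 also fell in MEKi/L and in 24-day GSK3i/L against S/L, but was not called in 8-day GSK3i/L against S/L. It was lower in 2i/L than in 8-day GSK3i/L, and lower at 24 than at 8 days in GSK3i/L.

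Of the 22 targets listed, 20 were tested. In 2i/L against S/L 12 rose, led by Cdx1 and Axin2, and 3 fell (Lef1, Myc and Bambi), which is 60% and 15% of the targets beside 39.1% and 24.4% of all tested genes. In MEKi/L against S/L 4 rose and 7 fell, or 20% and 35% beside 26.1% and 14.7%. In 8-day GSK3i/L against S/L 9 rose and Myc alone fell, or 45% and 5% beside 16.8% and 14.4%. For the targets in 2i/L against MEKi/L 8 rose and Lef1 alone fell, or 40% and 5% beside 6.81% and 6.11%. Against 8-day GSK3i/L, 3 rose and 5 fell in 2i/L, or 15% and 25% beside 19.8% and 8.02%. At 24 against 8 days limma called 0 higher and 8 lower (0 higher and 13 lower at an unadjusted p under 0.05), and the 8 are 40% beside 13.2%. In 24-day GSK3i/L against S/L 3 rose and 4 fell, or 15% and 20% beside 10.2% and 14.9%.

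The median log2 fold change of the 20 targets was 1.05 in 2i/L against S/L (0.28 over all tested genes), -0.68 in MEKi/L against S/L (0.17) and 0.78 in 8-day GSK3i/L against S/L (0.06). It was 0.74 in 2i/L against MEKi/L (0.07 over all tested genes), 0.26 in 2i/L against 8-day GSK3i/L (0.18), -1.08 at 24 against 8 days in GSK3i/L (-0.19) and -0.10 in 24-day GSK3i/L against S/L (-0.12).

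Among 23 tested genes of the intracellular core of the pathway, 18 rose and 3 fell in 2i/L against S/L, or 78.3% and 13% beside 39.1% and 24.4% of all tested genes. Tcf7l1, a repressor of pluripotency genes, had a log2 fold change of 1.46 ± 0.26 (SE, limma adjusted p = 0.00027). The balance of long and short transcripts moved in the same comparison. Of the 37 long transcripts 31 rose, and the median log2 fold change of the 37 was 1.80. Of the 40 short ones 30 fell, all of the respiratory chain or ATP synthase, and the median of the 40 was -1.36. The part of this balance in the counts of the core was not tested. In 2i/L against MEKi/L only Axin2 rose and only Lef1 fell among these 23, each 4.35% beside 6.81% and 6.11% of all tested genes. In MEKi/L against S/L 10 rose and 2 fell (43.5% and 8.7%, beside 26.1% and 14.7%), in 8-day GSK3i/L against S/L limma called 6 higher and 0 lower (8 higher and 2 lower at an unadjusted p under 0.05), the 6 being 26.1% beside 16.8%, and at 24 against 8 days 1 rose and 7 fell (4.35% and 30.4%, beside 4.3% and 13.2%). In 2i/L against 8-day GSK3i/L 9 rose and 1 fell (39.1% and 4.35%, beside 19.8% and 8.02%), and in 24-day GSK3i/L against S/L 1 rose and 2 fell (4.35% and 8.7%, beside 10.2% and 14.9%). The median log2 fold change of the core in 2i/L against S/L was 0.92, beside 0.28 for all tested genes.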

How the data were processed

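The 14 RNA-seq libraries were analysed, and 24 bisulfite samples of the series were not. The RNA libraries were strand-preserving, made from polyadenylated RNA and sequenced as single 50-base reads, per the labels' protocols. Trim Galore 0.6.5, Bismark 0.22.3, HISAT2 and the build GRCm38 are listed in the submitters' processing notes. Which annotation and counting tool were used, and whether counting used strand, is not stated there. The authors deposited 1 table of log2 values per gene, which were taken as log2 RPM. The numbers show this for 8 libraries only. In the 6 libraries of 8-day GSK3i/L and S/L, which share 1 distribution, RPM is on that shared scale. In 8 libraries (2i/L, MEKi/L and 24-day GSK3i/L) at least 99.96% of the deposited values were whole multiples of 1 read within 0.02 of a read, with genes of 0 reads set at 0.9 of a read. The 6 libraries of 8-day GSK3i/L and S/L share 1 distribution of values, so 2i/L against MEKi/L lies within 1 treatment of the values, 8-day GSK3i/L against S/L within the other, and the remaining 5 comparisons cross them, which can shift the balance of higher and lower genes. All value columns could be assigned to a library.

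The log2 values were fitted with limma 3.58.1 in R 4.3.3 (intensity trend, robust variances), with all 14 libraries in 1 fit, group as the only term and Benjamini-Hochberg adjustment over the 14980 genes that reached 0.5 RPM in 3 or more libraries. The design had allowed for counts, and the form for log2 values was used. A call needs an adjusted p under 0.05 and no minimum fold. Reads per gene at the low end were taken from the steps between deposited values. For the 6 libraries with a shared distribution, depth is an approximation based on genes of 80 to 120 reads. Folds against a group with 0 reads are lower bounds at 3 reads per library, and no fold is given against a group with 1 to 3 reads; floors cover counting error only. The script was tested on simulated data. Members and gene lists were chosen with earlier results of these data known. Every member is named, called members that reach 5 RPM are given by library, and all called members are named in each comparison. Comparisons that share a group of libraries are not independent. Promoter sequences are from RefSeq (GRCm38.p6). Alternatives were other normalizations, filters, offsets, variance models, samples and covariates, and leaving out each library.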

Additional observations from a re-analysis of the deposited data

How the results depend on the processing

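Of 120 calls of a member in a comparison, 77 were kept under each of 10 alternatives and 14 fits without 1 library that could test them, 43 were lost under at least 1, and 0 reversed. The 120 and the 77 include the calls of Dkk2 and Frzb in the 3 comparisons with 8-day GSK3i/L. Those genes passed the filter only through that group, so their calls are no support for these counts. Median centring moved the median of all tested genes by -0.31 in 2i/L against S/L and -0.18 in MEKi/L against S/L. Fitted on the 2 groups alone, the members called were 8 higher in MEKi/L against S/L (4 with all groups), 4 lower at 24 against 8 days in GSK3i/L (11 with all groups) and 16 lower in 24-day GSK3i/L against S/L (10 with all groups). Adding the score of long against short transcripts to the model, 6 were higher in 2i/L against S/L (10 without it) and 6 lower at 24 against 8 days. At 24 against 8 days, 6 were lower under quantile normalization and 7 with no filter on low values, and 1 was higher with log2(RPM + 0.5), against 0. With the replicate number as a block, 6 were lower at 24 against 8 days; the numbers were not taken to pair the samples, since the deviations of 26 same-numbered pairs correlated at -0.31 to 0.67 and 8 pairs were over 0.1. All 3 pairs of MEKi/L and 8-day GSK3i/L, which are not compared here, were over 0.1 (0.67, 0.12 and 0.40), and in no comparison made were all pairs over 0.1. The block moved no other count of members by more than 1.5 times. Outside quantile normalization and median centring, the counts here and below are given without the share of all tested genes under the same setting. A change particular to the members therefore cannot be told from a change over all tested genes. The causes of these changed counts were not tested, and the fits on 2 groups also had fewer samples.

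Leaving out 1 library gave 5 to 12 members lower in 8-day GSK3i/L against S/L, 4 to 8 lower in 2i/L against MEKi/L, 5 to 12 higher in 2i/L against 8-day GSK3i/L, 0 to 1 higher and 4 to 13 lower at 24 against 8 days, and 2 to 5 higher in 24-day GSK3i/L against S/L; with 1 library left at 24 days, it is assumed to vary like the other groups. The stricter filter of 1 RPM tests fewer members, and 110 of the 120 calls could be repeated, all kept. The 110 again include the calls of Dkk2 and Frzb, which are no support for the count. Ligands near the floor, such as Wnt8a and Wnt9a, are limited by depth.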

Other observations

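Further Wnt modulators were measured in the same libraries, as were the planar polarity genes, which orient cells within a sheet and share receptors with the Wnt pathway. R-spondins raise the number of Frizzled receptors at the cell surface, and the 3 that were tested had their highest means in different media. Rspo1 averaged 0.169 ± 0.079 RPM in 2i/L, 1.01 ± 0.30 RPM in MEKi/L, 0.258 ± 0.258 RPM in 24-day GSK3i/L, 0.246 ± 0.067 RPM in 8-day GSK3i/L and 2.91 ± 0.75 RPM in S/L (SD, n = 2 at 24 days and 3 elsewhere). Its log2 fold change was -4.22 ± 0.62 in 2i/L against S/L (SE, limma adjusted p = 6.5e-05). Rspo2 averaged 1.15 ± 0.46 RPM in MEKi/L and had 0 reads in S/L, at least 3.5-fold higher in MEKi/L. Rspo3 averaged 1.24 ± 0.41 RPM in 8-day GSK3i/L and had 0 reads in 2i/L and in S/L, at least 3.7-fold higher in 8-day GSK3i/L than in S/L. Rspo2 passed the filter on low values only through MEKi/L, and Rspo3 and Sostdc1, a secreted inhibitor, only through 8-day GSK3i/L, so their differences are a description. Of 19 tested genes of this list, 7 rose and 4 fell in 2i/L against S/L, or 36.8% and 21.1%, near the 39.1% and 24.4% of all tested genes. Of the same genes 3 rose and 3 fell in 2i/L against MEKi/L, each 15.8% beside 6.81% and 6.11%. At 24 against 8 days in GSK3i/L limma called 0 higher and 8 lower (0 higher and 11 lower at an unadjusted p under 0.05), the 8 being 42.1% beside 13.2% of all tested genes. The 8 include Rspo3 and Sostdc1, and the 3 that fell in 2i/L against MEKi/L include Rspo2. Those calls are no support for the counts or shares.

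Of 18 tested planar polarity genes, 8 rose and 1 fell in 2i/L against S/L, or 44.4% and 5.56% beside 39.1% and 24.4% of all tested genes. In MEKi/L against S/L 6 rose and 1 fell, or 33.3% and 5.56% beside 26.1% and 14.7%, and in 2i/L against MEKi/L 4 rose and 1 fell, or 22.2% and 5.56% beside 6.81% and 6.11%. Prickle2, a cytoplasmic polarity protein, averaged 33.0 ± 3.9 RPM in 2i/L, 17.3 ± 3.8 RPM in MEKi/L, 1.79 ± 0.16 RPM in 24-day GSK3i/L, 6.12 ± 0.61 RPM in 8-day GSK3i/L and 0.865 ± 0.384 RPM in S/L. It rose in 2i/L against S/L by 5.34 ± 0.28 on the log2 scale (SE, limma adjusted p = 1.1e-08). Celsr1, an adhesion receptor with a very long transcript, rose by 2.94 ± 0.42 in the same comparison (limma adjusted p = 5.1e-05), and the balance of long and short transcripts moved the same way. Its part in the Celsr1 difference was not tested. Dchs1, a cadherin of the polarity system, had 0 reads in 2i/L and at 24 days in GSK3i/L and averaged 2.78 ± 1.70 RPM in 8-day GSK3i/L, so that it was at least 12.5-fold lower in 2i/L and at least 11.3-fold lower at 24 days. It passed the filter only through 8-day GSK3i/L. The summed mesenchymal markers were high in the same 3 libraries of 8-day GSK3i/L, and their part in the Dchs1 and Rspo3 differences was not tested.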
